A study of Mus musculus with 6 samples.

Results

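The 10 genes described here are SOX transcription factors outside SOX1 to SOX3, from groups C, D, E and F. *Sox13* of group D and *Sox10* of group E were not included. The members are *Sox4*, *Sox11* and *Sox12* (group C), *Sox5* and *Sox6* (group D), *Sox8* and *Sox9* (group E), and *Sox7*, *Sox17* and *Sox18* (group F). They were chosen by gene symbol, and are 10 of the 16279 genes listed in either of 2 bulk RNA-seq tables, which compare mouse embryonic stem cells (mESCs) with cardiac precursor cell cultures (CPCCs). The mESCs were male F1 cells of a C57BL/6 x CAST/EiJ cross, 1 clone from each of 3 blastocysts, kept in 2i medium with Lif, PD0325901 and CHIR99021. The CPCCs came from these clones through hanging drops and embryoid bodies treated with ascorbic acid, followed by passages in enrichment medium with EGF and Fgf2. Each cell type has 3 libraries, named S01 to S03 in mESCs and S04 to S06 in CPCCs (values below keep this order), and no library could be matched to its clone. CPCCs are mixed cultures, and in bulk RNA fewer cells of a type and less RNA per cell cannot be told apart.

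SOX proteins bind DNA through a high-mobility-group box related to that of the sex-determining factor SRY, and they usually act with partner factors. Group C factors carry a strong activation domain and act in neural and mesenchymal progenitors, including those of the outflow tract of the heart. Group D factors lack an activation domain and work beside SOX9 in cartilage. Group E factors direct neural crest, glia, cartilage and, for SOX9, the cushions that become heart valves, while group F factors act in endothelium and, for SOX17 and SOX7, in endoderm.

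All 3 group C genes are encoded by a single exon, and RefSeq start windows were found for each of them and for *Sox5*, *Sox6* and *Sox8* (6 of the 10 members). The windows of *Sox7*, *Sox9*, *Sox17* and *Sox18* were not used here. The bases from -250 to -21 of the RefSeq start are shown for group C because this group held most of the counts of the 10 genes and because *Sox4* and *Sox11*, but not *Sox12*, passed the test below. They lie on the minus strand of GRCm38.p6, at chr13:28953720-28953949 for *Sox4*, chr12:27342739-27342968 for *Sox11* and chr2:152398067-152398296 for *Sox12*. Capitals mark CCAAT, the letters of the CCAAT box bound by NF-Y, or its reverse complement ATTGG.
Sox4: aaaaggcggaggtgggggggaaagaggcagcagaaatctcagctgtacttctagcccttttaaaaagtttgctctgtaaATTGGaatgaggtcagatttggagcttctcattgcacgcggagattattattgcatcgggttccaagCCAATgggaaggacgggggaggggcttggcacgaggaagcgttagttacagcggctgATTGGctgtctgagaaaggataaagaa
Sox11: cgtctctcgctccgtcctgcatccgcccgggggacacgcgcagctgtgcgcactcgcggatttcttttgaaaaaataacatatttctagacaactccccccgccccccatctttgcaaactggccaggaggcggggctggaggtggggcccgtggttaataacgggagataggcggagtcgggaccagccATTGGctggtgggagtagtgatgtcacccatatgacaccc
Sox12: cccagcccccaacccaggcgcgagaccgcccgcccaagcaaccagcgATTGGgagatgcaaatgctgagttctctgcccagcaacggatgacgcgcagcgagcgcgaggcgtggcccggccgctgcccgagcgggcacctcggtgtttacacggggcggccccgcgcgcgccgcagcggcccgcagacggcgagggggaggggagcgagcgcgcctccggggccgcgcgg

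The *Sox4* window held 3 such matches, starting at -171, -104 and -47, the *Sox11* window 1 at -60 and the *Sox12* window 1 at -203. On both strands, 32.8% of 27025 RefSeq windows of this length, 1 per gene, held at least 1 match. The share of G and C was 49.1% for *Sox4*, 59.6% for *Sox11* and 76.1% for *Sox12*, with 8, 16 and 35 CpG dinucleotides, against medians of 51.7% and 5 over all windows. The letters TATAAA (12.4% of windows) and ACAAT, the core that SOX proteins recognise (27.0% of windows), were in none of the 3 windows on either strand. The octamer ATGCAAAT of POU factors (1.54% of windows) was in that of *Sox12* alone among the 3, at -195, where it does not overlap the CCAAT match. These letters were chosen after the windows were seen, and a match is a description of sequence only.

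The deposited values are estimated counts of reads per gene, and library totals ranged from 6442639 to 6907330 in mESCs and from 8468819 to 11436062 in CPCCs. Levels are given below as CPM, counts per 1000000 after TMM normalization, on which 3 counts equal 0.439 to 0.463 CPM in mESCs and 0.298 to 0.364 CPM in CPCCs. A table leaves out genes with fewer than 10 counts over its 3 libraries. A fold against such a gene is given as a bound, the mean of the listed cell type over 3 counts per library. This bound takes the cutoff as the level of the other cell type, and covers neither counting error nor the spread between libraries. The CPCC library S04 stood apart from S05 and S06, since a chi-square statistic of their counts per degree of freedom was 51.2 and 69.6 against S04 and 14.1 between S05 and S06. Of 8 pluripotency genes fitted, 8 were lower in CPCCs (median -5.27 on the log2 scale), among them the naive pluripotency factors *Tbx3* at -5.36, *Tfcp2l1* at -7.35 and *Esrrb* at -5.37, and of 10 cardiac genes 3 could be tested and 1, *Tnnt2* of the sarcomere, was higher by 5.01, with *Isl1* at 1.47 (adjusted p = 0.124, edgeR), *Gata4* at 1.26 (adjusted p = 0.137) and 6 more genes listed only for CPCCs. Among cardiac factors in CPCCs, *Mef2c* had 19.3, 9.94 and 12.8 CPM in S04 to S06, *Hand2* 6.76, 1.09 and 1.95 CPM, *Hand1* 2.19, 0.364 and 1.95 CPM and *Nkx2-5* 1.59, 0 and 0.917 CPM, and *Tbx5* is not listed. Of the same cardiac list, *Actc1* had 280.6, 85.4 and 85.6 CPM in S04 to S06 and *Myh6* 21.2, 5.34 and 9.17 CPM. The summed level of the 10 cardiac genes came to 131 to 439 CPM in CPCCs against 3.97 to 4.68 CPM in mESCs. Of 8 mesenchymal genes, 4 were tested and 4 were higher, with *Col1a1* at 12.40, *Acta2* at 12.31 and *Pdgfrb* at 5.06, and the summed level of all 8 came to 11764 to 18020 CPM in CPCCs against 10.8 to 18.6 CPM in mESCs. Their part in the SOX levels was not tested.

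All 10 members are listed for CPCCs and 7 for mESCs. *Sox5*, *Sox8* and *Sox9* are listed only for CPCCs, as are 15.5% of all genes. Of the 7 genes in both tables, *Sox17* and *Sox18* fell under the filter on low counts and 5 were put to the quasi-likelihood test of edgeR, with p-values adjusted by Benjamini and Hochberg's method. Of these 5, *Sox4*, *Sox6* and *Sox11* were higher in CPCCs at an adjusted p under 0.05, where 31.7% of the 12471 genes tested were higher. None was lower (0 also at an unadjusted p under 0.05 and 0 with DESeq2), where 29.7% of the genes tested were lower. The same 3 genes had log2 fold changes of at least 3 beside the adjusted p, which 7.19% of the genes tested had. In these 3 every CPCC library also lay above every mESC library, as in 35.3% of the genes tested, while the libraries overlapped in *Sox7*, *Sox12*, *Sox17* and *Sox18*.

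**Figure D1:**
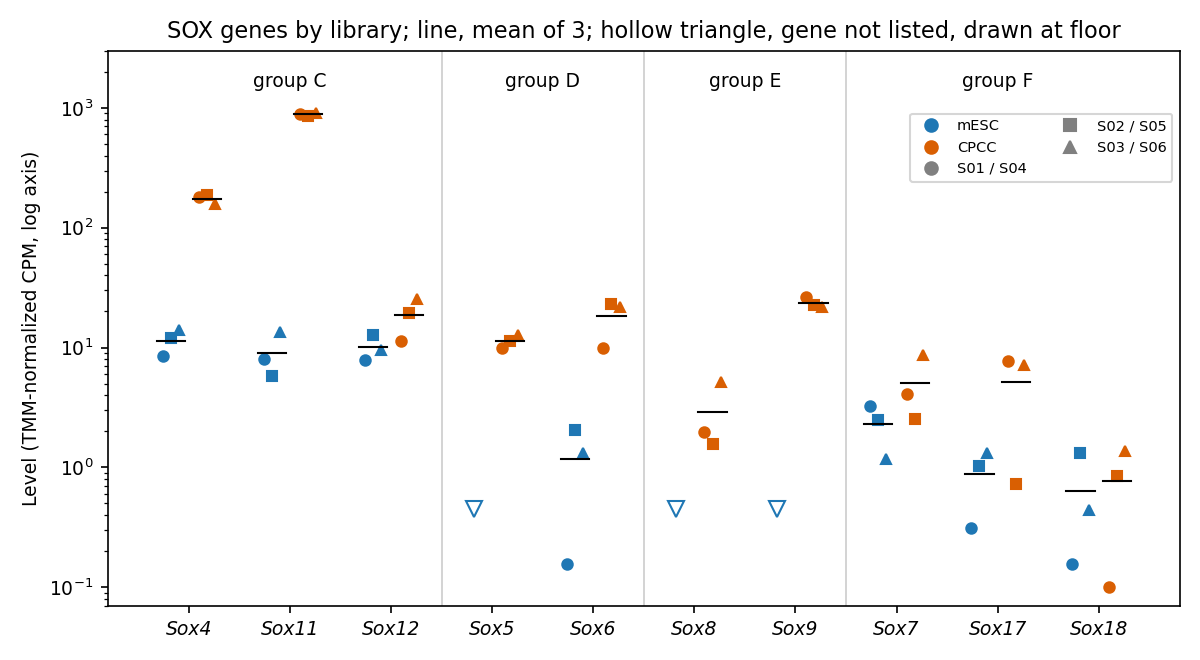
Level of each of the 10 SOX genes in each library, in TMM-normalized CPM on a log axis, with mESC libraries in blue and CPCC libraries in orange. Marker shapes only name the libraries, the line is the mean of 3, and hollow triangles stand at 0.448 CPM, the mean mESC floor, for genes not listed there. *Sox11* in CPCCs is the highest gene at 856 to 913 CPM, and only *Sox4*, *Sox6* and *Sox11* are listed for both cell types without overlap.

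Of the counts of the 10 genes, group C held the most in both cell types. *Sox11*, a factor of neural and mesenchymal progenitors (chromosome 12, 27334268 to 27342719), had 8.03, 5.74 and 13.5 CPM from S01 to S03. It had 889, 856 and 913 CPM from S04 to S06. The CPCC libraries were close to each other, the highest 1.07 times the lowest, and far above all mESC libraries. The mean was 9.08 ± 3.96 CPM in mESCs and 886 ± 28.9 CPM in CPCCs (SD, n = 3 each), and the fitted log2 fold change came to 6.61 (standard error, SE, 0.32, adjusted p = 1.61e-06, edgeR), or 97.4-fold. Leaving out S04, the library that stood apart, gave 6.62.

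*Sox4* (chromosome 13, 28950730 to 28953683), which acts with *Sox11* in many progenitors and is needed for the outflow tract, had 8.50, 11.9 and 13.9 CPM in S01 to S03. In S04, S05 and S06 it had 180.6, 186.9 and 158.4 CPM. All CPCC libraries again lay above all mESC libraries, with little spread among the CPCC libraries. The mean rose from 11.4 ± 2.73 to 175.3 ± 15.0 CPM (SD, n = 3 each), or by 3.93 on the log2 scale (SE 0.23, adjusted p = 2.99e-06, edgeR), and 3.93 also without S04. The non-coding gene *Gm26735* overlaps *Sox4* on the other strand, and without a statement on strand in counting their reads cannot be told apart.

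*Sox12* (chromosome 2, 152393612 to 152398047), the third group C gene and a weaker activator, had 7.88, 12.8 and 9.51 CPM in S01 to S03 and 11.2, 19.3 and 25.2 CPM in S04 to S06. The lowest CPCC library, S04, lay below the highest mESC library, S02. The means were 10.1 ± 2.51 and 18.6 ± 7.02 CPM (SD, n = 3 each), and the log2 fold change of 0.88 (SE 0.35, adjusted p = 0.0547, edgeR) did not pass the threshold. This call turned on the setting: DESeq2 gave 0.87 (adjusted p = 0.0428), and without S04 edgeR gave 1.16 (adjusted p = 0.00437).

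The makeup of the counts of the 10 genes differed between the cell types. *Sox11* took 28.4%, 15.4% and 32.7% of the counts of the 10 genes in S01 to S03, and 77.9%, 76.1% and 77.7% in S04 to S06. *Sox4* took 30.1%, 31.9% and 33.8% in mESCs and 15.8%, 16.6% and 13.5% in CPCCs, although its own level rose. *Sox12* went from between 23.1% and 34.3% in mESC libraries to between 0.984% and 2.15% in CPCC libraries. The summed level of group C was 24.4, 30.4 and 36.9 CPM in mESCs, against 1081, 1062 and 1097 CPM for CPCCs, so that it held 81.5% to 89.7% of the members' counts in mESCs and 93.3% to 94.7% in CPCCs.

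Of group D, *Sox6* (chromosome 7, 115470872 to 116038745), known in cartilage, erythroid cells and muscle, had 0.154, 2.06 and 1.32 CPM in S01 to S03. It had 9.94, 22.9 and 21.7 CPM in S04 to S06. The mESC library S01 was far below the other two and S04 was the lowest CPCC library, yet the cell types did not overlap. The log2 fold change was 3.92 (SE 0.64, adjusted p = 0.000736, edgeR), or 15.1-fold, and between 3.41 (without S01) and 4.58 (without S02) with 1 library left out. The mESC value of S01 is under its floor of 0.463 CPM, so the fold rests on few mESC counts.

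*Sox5* (chromosome 6, 143828425 to 144209569), the close partner of *Sox6* in cartilage, is not listed for mESCs. In S04, S05 and S06 it had 9.94, 11.4 and 12.6 CPM (mean 11.3 ± 1.33, SD, n = 3), with a bound over mESCs of 25.3-fold. The CPCC libraries differed little, the highest 1.27 times the lowest, whereas for *Sox6* this ratio was 2.31. *Sox5os1* overlaps *Sox5* on the other strand, so that their reads cannot be told apart.

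Group E was listed for CPCCs alone. *Sox9* (chromosome 11, 112782210 to 112787758), the main factor of chondrocytes and of heart valve mesenchyme, had 26.3, 22.8 and 21.9 CPM in S04 to S06, with S04 the highest and the spread small, and a bound over mESCs of 52.9-fold. *Sox8* (chromosome 17, 25565893 to 25570687), which acts beside *Sox9* and *Sox10* in neural crest and testis, had 1.99, 1.58 and 5.16 CPM. Its highest library was S06, 3.27 times the lowest, and its bound over mESCs was 6.49-fold, which does not cover this spread. The gene *2810468N07Rik* overlaps *Sox8* on the other strand. *Sox10*, the third group E gene and a factor of neural crest and glia, was not among the 10 members, is also listed only for CPCCs, and had 0, 0.970 and 0.917 CPM in S04 to S06.

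The 3 group F genes had the widest ratios between the highest and the lowest CPCC library among the 10, at 3.38 for *Sox7*, 10.7 for *Sox17* and 13.8 for *Sox18*. *Sox8* of group E was close to *Sox7* at 3.27, and the lowest CPCC libraries of *Sox17* and *Sox18* held only 6 and 1 counts. *Sox7* (chromosome 14, 63943706 to 63950733), of endothelium and primitive endoderm, had 3.24, 2.50 and 1.17 CPM in S01 to S03 and 4.08, 2.55 and 8.60 CPM in S04 to S06. S05 lay between S01 and S02, so that the cell types overlapped. The log2 fold change was 1.14 (SE 0.61, adjusted p = 0.135, edgeR) and did not pass the threshold, with adjusted p between 0.084 and 0.504 when 1 library was left out.

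*Sox17* (chromosome 1, 4490928 to 4497355), a determinant of definitive endoderm that also acts in arterial endothelium, had 2, 7 and 9 counts in S01 to S03 and 78, 6 and 62 counts in S04 to S06. These equal 0.309, 1.03 and 1.32 CPM in the mESC libraries, against 7.75, 0.728 and 7.11 CPM for CPCCs. S04 and S06 stood above every mESC library, while S05 lay below S02 and S03. Under the filter of the main test no p was given. Without the filter the log2 fold change was 2.56 (SE 0.89, adjusted p = 0.033, edgeR), and with library sizes over whole tables it was 2.54 (adjusted p = 0.0328). With 1 library left out it passed the filter in 4 fits, with adjusted p of 0.104, 0.0778 and 0.064 without S01, S02 and S03 and 0.00596 without S05, its lowest CPCC library. *Gm37587* overlaps *Sox17* on the other strand.

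*Sox18* (chromosome 2, 181669837 to 181671641), of blood and lymph vessels, had 1, 9 and 3 counts in S01 to S03 and 1, 7 and 12 counts in S04 to S06. The cell types overlapped throughout, and 1 library of each was under 3 counts. Without the filter its log2 fold change was 0.26 (SE 1.06, adjusted p = 0.849, edgeR), so that a difference was not detectable at this depth. The 3 group F genes did not share an order of the CPCC libraries: S04 was highest for *Sox17*, and S06 for *Sox7* and *Sox18*.

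**Figure D2:**
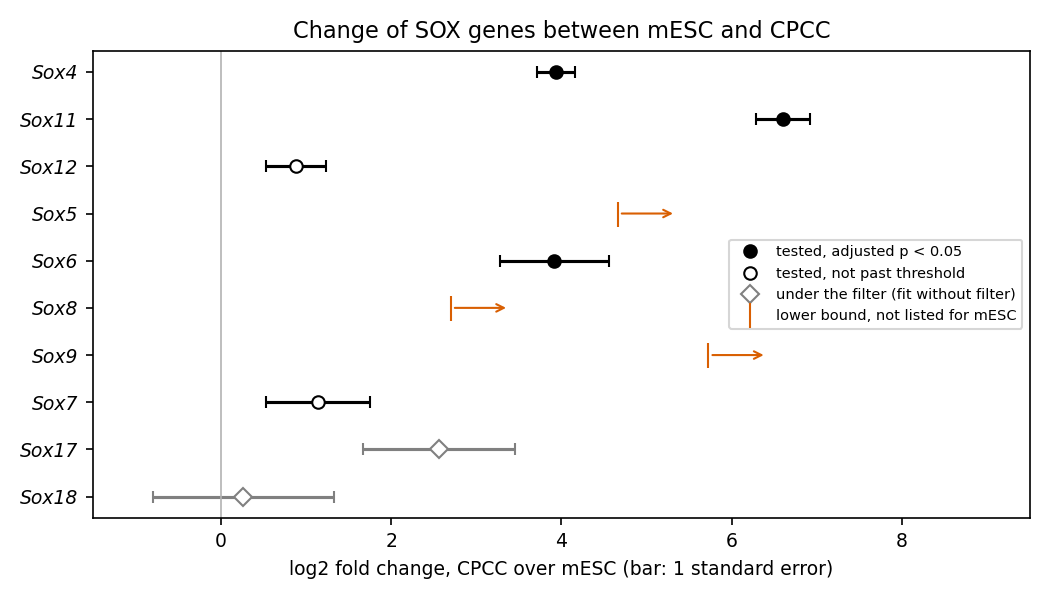
Log2 fold change of each SOX gene, CPCC over mESC, with bars of 1 standard error. Filled circles passed an adjusted p of 0.05, open circles did not, grey diamonds are values without the filter on low counts, and orange arrows start at the bound for genes not listed for mESCs. Among the genes with a fitted value, *Sox11* stands highest at 6.61, *Sox4* and *Sox6* lie next to each other at 3.93 and 3.92, and the bar of *Sox18* crosses 0. Genes given as bounds cannot be ranked against these.

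To compare levels between genes, CPM was divided by the length in kb of the exons of GENCODE M21 within the span that the tables give. In mESCs the order was *Sox4* at 3.87 ± 0.92 CPM per kb, *Sox12* at 2.27 ± 0.56, *Sox11* at 1.09 ± 0.48, *Sox7* at 0.706 ± 0.32, *Sox18* at 0.395 ± 0.38, *Sox17* at 0.185 ± 0.11 and *Sox6* at 0.080 ± 0.065 (SD, n = 3 each). Among neighbours in this order, the library ranges did not overlap between *Sox12* and *Sox11* alone. In CPCCs *Sox11* came first at 106.7 ± 3.48 CPM per kb and *Sox4* second at 59.3 ± 5.07, without overlap between them or with the third gene, *Sox9*, at 5.73 ± 0.57 (SD, n = 3 each). After these, *Sox12* stood at 4.19 ± 1.58 CPM per kb, *Sox7* at 1.55 ± 0.96, *Sox6* at 1.23 ± 0.48 and *Sox17* at 1.09 ± 0.81 (SD, n = 3 each). The order ended with *Sox8* at 0.933 ± 0.63 CPM per kb, *Sox5* at 0.809 ± 0.095 and *Sox18* at 0.478 ± 0.40, and from *Sox9* down each gene overlapped the next. The table's span holds 2954 of the 4795 exon bases of *Sox4*, and the exons of *Sox5* and *Sox6* were joined over all isoforms, so that the level per length of *Sox5* and *Sox6* is a low estimate where a cell uses a short isoform.

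**Figure D3:**
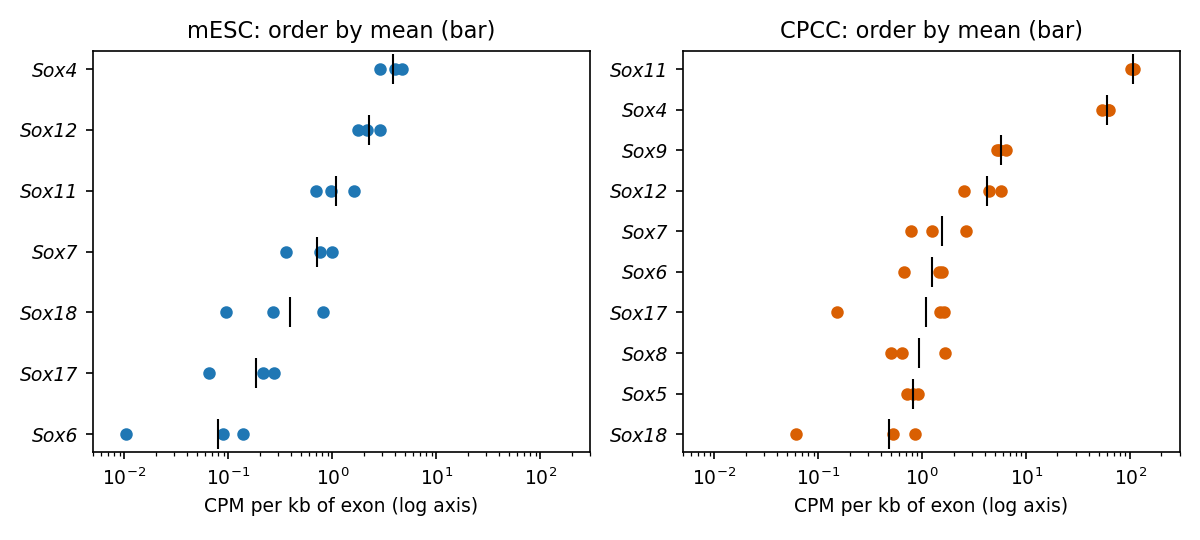
SOX genes ordered by mean level per length (CPM per kb of exon, log axis), mESC left and CPCC right. Points are libraries and black bars the mean of 3. *Sox4*, *Sox12* and *Sox11* lead in mESCs, and *Sox11* at 106.7 and *Sox4* at 59.3 CPM per kb stand apart from the other 8 in CPCCs.

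The remaining SOX genes of the mouse served as a comparison. Of 10, 5 were tested, 2 were higher, 2 were lower, 2 are listed only for CPCCs and 3 (*Sox14*, *Sox30* and *Sry*) in neither table. On the log2 scale the median of these 5 was -0.16, and 0.49 over 7 with bounds, against 0.03 over all genes tested. *Sox15*, expressed in stem cells and the only SOX gene of its group, had 21.2, 32.1 and 17.8 CPM in S01 to S03 and 0.696, 2.67 and 3.09 CPM in S04 to S06 (log2 fold change -3.47, SE 0.51, adjusted p = 0.000369, edgeR). *Sox2*, the group B factor of pluripotent and neural cells, fell by 2.34 on the log2 scale (SE 0.41, adjusted p = 0.00106, edgeR). Its level in S04 was 12.7 CPM, against 42.6 and 39.2 CPM in S05 and S06.

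*Sox1*, of the neural plate, was higher with a log2 fold change of 3.86 (SE 0.95, adjusted p = 0.00651, edgeR) and *Sox21*, a group B repressor, with 2.20 (SE 0.52, adjusted p = 0.00526, edgeR). *Sox1* had 3.78, 23.4 and 50.9 CPM in S04 to S06, and *Sox21* had 6.78, 23.4 and 25.6 CPM. *Sox3*, listed only for CPCCs, had 0.895, 2.55 and 4.47 CPM in the same order. S04 was the lowest CPCC library in these 3 genes, in *Sox2* and *Sox15*, and among the members in *Sox5*, *Sox6*, *Sox12* and *Sox18*, but not in the other 6. *Sox13*, of group D, did not pass the threshold (log2 fold change -0.16, SE 0.54, adjusted p = 0.816, edgeR). *Sox1ot* and *Sox2ot* overlap *Sox1* and *Sox2* on the same strand, and *Mpdu1* and *Gm4675* overlap *Sox15* and *Sox21* on the other, so that reads of these genes are uncertain too.

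Lists of genes from the programs in which these factors act were then counted, with each list's median beside the 0.03 of all genes tested. The lists are known targets, partners or markers and were not tested as sets. Group C factors are known to activate neuronal genes. Of 9 such genes, 7 were tested, 5 were higher and 0 lower in CPCCs (0 lower also at an unadjusted p under 0.05 and with DESeq2), with a median of 3.31 on the log2 scale, and 3.54 over 8 with a bound for *Dcx*. With at least 10 counts in every library, which leaves out the genes lowest in mESCs, the median of the list was 0.44. *Tubb3*, a neuronal tubulin, was higher by a log2 fold change of 2.49 (SE 0.26, adjusted p = 5.16e-05, edgeR), *Map2* of dendrites by 3.76 (SE 0.52, adjusted p = 0.000282) and the POU factor *Pou3f3* by 4.51 (SE 0.74, adjusted p = 0.000738). *Tead2* at -0.38 (adjusted p = 0.0953, edgeR) and *Stmn2* at 0.37 (adjusted p = 0.151) did not pass the threshold. *Tead2* had 136 to 160 CPM in mESCs and 93.4 to 132 CPM in CPCCs, and *Stmn2* 387 to 408 CPM and 406 to 682 CPM. *Dcx*, a microtubule protein of young neurons, is listed only for CPCCs at 9.34, 22.6 and 38.6 CPM in S04 to S06, and was lowest in S04 as were *Sox1* and *Sox2*. The neuronal list did not share this order. *Map2*, *Pou3f2*, *Pou3f3* and *Tead2* were also lowest in S04 among CPCC libraries, while *Tubb3*, *Stmn2* and *Neurod1* were highest in S04.

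For groups D and E, 17 cartilage genes were counted. Of these, 7 could be tested, 3 were higher and 2 lower, 4 are in neither table, 1 is in that of mESCs alone and 5 in that of CPCCs alone. The median stood at 0.40 on the log2 scale, and 2.57 over 13 genes with bounds. It depended on the setting: with at least 10 counts in every library it was 3.31, and with missing genes at 0 and 3 counts 3.27 and 3.04. *Col2a1*, the main collagen of cartilage, had 6.33, 6.47 and 1.61 CPM in S01 to S03 and 82.9, 228 and 183 CPM in S04 to S06 (log2 fold change 5.10, SE 0.54, adjusted p = 6.07e-05, edgeR). *Col27a1*, another fibrillar collagen, was higher by 3.24 (SE 0.31, adjusted p = 3.42e-05) and *Col9a2*, of the collagen that coats these fibrils, was lower (log2 fold change -5.07, SE 0.35, adjusted p = 6.63e-06). *Acan*, the aggrecan core protein of mature cartilage, was at 0.0994, 0.485 and 3.21 CPM in CPCCs and did not pass the threshold (log2 fold change -1.59, adjusted p = 0.18, edgeR), and it is named here after its values were seen.

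Of 11 cofactors of SOX9, 8 were tested, 1 was higher and 1 lower, and the median log2 fold change was 0.21. *Trps1*, a GATA-type repressor, was higher by 0.90 (SE 0.24, adjusted p = 0.00916, edgeR) and *Wwp2*, a ubiquitin ligase, was lower (log2 fold change -1.21, SE 0.22, adjusted p = 0.00149, edgeR). The Mediator subunit *Med12* had a log2 fold change of 0.48 (adjusted p = 0.113, edgeR).

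Of 16 neural crest genes, 10 were tested, 3 were higher and 4 lower, with 5 listed only for CPCCs and 1 in neither. The median stood at -0.77 on the log2 scale, and 2.10 over 15 genes with bounds, so that the sign of the median depended on the genes listed for 1 cell type. *Snai1* and *Snai2*, repressors of epithelial genes, were higher by log2 fold changes of 4.69 (SE 0.65, adjusted p = 0.000267, edgeR) and 4.51 (SE 0.52, adjusted p = 9.95e-05). *Foxd3*, of early crest and of pluripotent cells, was lower at -3.35 (SE 0.46, adjusted p = 0.000279).

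For group F, 20 endothelial and 20 endoderm genes were counted. Of the endothelial genes, 7 were tested, 2 were higher and 4 lower, 4 (*Tie1*, *Cldn5*, *Nos3* and *Dll4*) are in neither table, 1 is in that of mESCs alone and 8 in that of CPCCs alone. The median stood at -1.18 on the log2 scale, and 2.65 over 16 genes with bounds. *Efnb2*, an ephrin of arteries and of many mesenchymal cells, was higher by 5.48 (SE 0.40, adjusted p = 8.54e-06, edgeR), while *Pecam1*, an adhesion protein of endothelium and also of mESCs, and *Vwf*, a clotting factor, were lower at -4.35 (SE 0.26, adjusted p = 3.38e-06) and -3.85 (SE 0.40, adjusted p = 5.53e-05). The defining endothelial cadherin *Cdh5*, named after its values were seen, is listed only for CPCCs with 12.5, 1.33 and 1.60 CPM in S04 to S06. Most other endothelial genes listed for CPCCs were also highest in S04: *Flt1*, *Flt4*, *Emcn*, *Esam*, *Fli1*, *Tal1*, *Tek*, *Notch4*, *Vwf* and *Efnb2*. *Kdr* and *Prox1* were highest in S05, and *Pecam1* and *Egfl7* in S06. The part of endothelial cells in the group F levels was not tested.

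Of the endoderm genes, 11 were tested, 9 were higher and 1 lower, 3 are listed for each cell type alone and 3 (*Afp*, *Ttr* and *Apoa1*) in neither table. The median was 3.17 on the log2 scale, and 2.92 over 16 genes with bounds, which leaves out *Cer1*, under the floor. The 3 genes with the smallest adjusted p were basement membrane genes, which many other cells express: *Col4a2* at 5.50 (SE 0.23, adjusted p = 1.28e-06, edgeR), *Col4a1* at 5.10 (SE 0.23, adjusted p = 1.38e-06) and *Lamb1* at 4.20 (SE 0.29, adjusted p = 6.16e-06). *Foxa2*, a defining endoderm factor named after its values were seen, had 5.96, 47.1 and 17.0 CPM in S04 to S06. Other endoderm factors differed in their order: *Gata6*, at 40.1, 7.52 and 7.33 CPM, was highest in S04, as was *Sox17*, and *Gata4* and *Cxcr4* were highest in S06. The part of endoderm cells in the *Sox17* level was not tested.

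**Figure D4:**
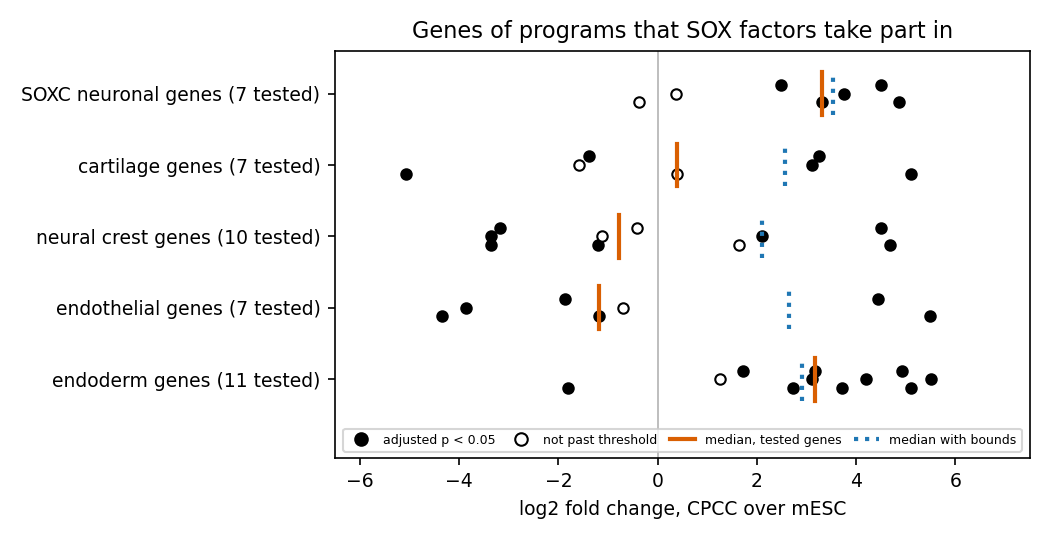
Log2 fold changes, CPCC over mESC, of the tested genes of 5 lists, with filled points past an adjusted p of 0.05. The orange line is the median of the tested genes and the dotted blue line the median with genes of 1 table at their bounds. In the neural crest and endothelial lists the 2 medians lie on opposite sides of 0 (-0.77 and 2.10, -1.18 and 2.65).

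By Pearson's r on log2 CPM over the 6 libraries, the non-SOX genes most like *Sox11* of 12461 compared were *Adgra2*, a receptor, and *Itfg1*, both at 0.9995, and those most like *Sox6* were *Smo*, the Hedgehog signal transducer, at 0.9976 and *Bend5* at 0.9974. The 6 points share the step between the cell types, and r is given as a description with no test. *Adgra2* had 1.24, 0.883 and 1.61 CPM in S01 to S03 and 28.1, 26.8 and 31.4 CPM in S04 to S06, and *Smo* had 11.1, 24.9 and 21.6 CPM and 65.4, 103.4 and 93.3 CPM. Like *Sox6*, *Smo* was lowest in S01 among mESCs and in S04 among CPCCs. *Sox9* and *Sox17*, with the highest mean CPM in CPCCs of groups E and F, were not tested and were not compared in this way, although *Sox17* at 5.20 ± 3.88 and *Sox7* at 5.07 ± 3.15 CPM (SD, n = 3 each) differed by less than their spread.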

How the data were processed

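PolyA-selected bulk RNA-seq of 3 mESC and 3 CPCC libraries was used. The authors aligned the reads and deposited estimated counts per gene in 1 table per cell type, neither normalized nor split by allele. The submitters' processing notes name STAR 2.7 and mm10, and the counter and its use of strand are not given in the sources used here. Cell types came from the labels and table names, and 0 sample columns were left unused.

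Counts were rounded to whole numbers. The 13001 genes in both tables were filtered with filterByExpr, and 12471 were tested with edgeR's quasi-likelihood test (edgeR 4.0.16, R 4.3.3) with TMM and Benjamini-Hochberg adjustment, at an adjusted p under 0.05. DESeq2 1.42.0 was an alternative, beside upper-quartile normalization, other filters, whole-table sizes, missing genes at 0 or 3 counts, and leaving out each library. Standard errors came from the F statistic. Log2 CPM used a prior count of 2. The fits were checked on simulated data. Figures used matplotlib 3.10.9.

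Replicates of each cell type differed by more than sampling noise (chi-square per degree of freedom 4.87 to 69.6). P-values measure the spread between these libraries. Named were all 10 members, of each list the 3 tested genes with the smallest adjusted p, every other SOX gene in a table, and the 2 genes most like the member with the highest mean CPM in CPCCs of each SOX group, where that member was tested. Named beyond this rule, after their values were seen, were genes that define a cell type and other genes of the lists. Members and lists were chosen with earlier results of these data known. Promoter windows are RefSeq's (GRCm38.p6). Gene lengths are from GENCODE M21.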

Additional observations from a re-analysis of the deposited data

How the results depend on the processing

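No paired analysis was possible because the columns carry no replicate numbers that would match a CPCC library to its mESC clone. Of 68 fold changes of the 5 tested members under other settings, 0 reversed. *Sox18*, under the filter, went from 0.26 with no filter to -0.20 without S01, neither past the threshold. The count of members higher in CPCCs was 3, and became 5 with no filter on low counts, which adds *Sox17* and lets *Sox12* pass, and 7 with genes missing from a table at 0 or at 3 counts, which adds *Sox5*, *Sox8*, *Sox9* and *Sox17*. For *Sox5*, *Sox8* and *Sox9* the mESC counts in these fits were filled in and have no spread. Their calls follow from the fill and are no evidence of their own. *Sox12* (log2 fold change 0.88) passed with DESeq2 at 0.87, with no filter at 0.90 and with at least 10 counts in every library at 0.95, and lay between 0.60 (without S06) and 1.16 (without S04, the 1 fit without a library in which it passed). The cause was not tested. *Sox6* was not testable with at least 10 counts in every library. Library totals without TMM, chosen after the data were seen, moved no member call. Of 139 list medians under other settings, 33 moved by over 1 SD and 6 changed sign: that of the other SOX genes was 0.15 without S05, that of cartilage genes -0.036 without S01, and with missing genes at 0 and 3 counts those of endothelial genes were 4.99 and 2.83 and of neural crest genes 2.14 and 2.04. The SOXC neuronal median was 0.44 with at least 10 counts in every library. Genes called ranged from 5604 (at least 2-fold, by construction) to 9011 (missing genes at 3 counts).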
